A study of Mus musculus with 2 samples.

Results

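Among 9049 lung cells of neonatal mice that passed the cell filters, 109 carried an alveolar macrophage signature, 61 in neonatal pool 1 and 48 in neonatal pool 2, out of 12968 passing cells of both ages. A cell was taken as an alveolar macrophage if it had at least 500 detected genes, at least 1000 unique molecular identifiers (UMIs, each marking a captured RNA molecule) and at most 10% mitochondrial UMIs, and if Atp6v0d2, Ear1, Krt19, F7 and Car4 together had at least 3 UMIs. A cell with any UMI of the endothelial genes Cdh5 and Cldn5, or of the type 1 dendritic cell genes Xcr1 and Clec9a, was left out. The cells came from the lungs of zbtb46-cre x rosa26-yfp mice, in which the Zbtb46 promoter drives Cre and so switches on a yellow fluorescent protein (YFP) in classical dendritic cells and their precursors, and in any cell that once used that promoter. Neonatal mice were 7 days old and adult mice were 8 weeks old, each age was represented by 2 pools of at least 5 mice, and both ages carried the same reporter. Live CD45.2+ YFP+ cells were sorted, labelled by the submitters as dendritic cells, and profiled with droplet-based 3′ RNA sequencing (10x Genomics). The 2 pools of an age were prepared separately, tagged with antibody hashtags and loaded together, so both neonatal pools share 1 droplet library, and age and library cannot be told apart.

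Alveolar macrophages live on the air side of the lung's gas-exchange surface, where they take up and break down surfactant lipid, inhaled particles and dead cells. In mice they arise shortly after birth from fetal monocytes, under GM-CSF and TGF-β, which lead to expression of the lipid-sensing nuclear receptor PPARγ. They are known for high scavenger receptor and lysosomal enzyme expression and for low MHC class II in the steady state.

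For comparison, 3 sets of neonatal cells were gated on raw UMIs in the same way. Classical monocytes (Ly6c2, F13a1 and Vcan) numbered 174 and 153 cells in the 2 pools, nonclassical monocytes (Ace and Treml4) 850 and 954, and type 2 classical dendritic cells (cDC2; Cd209a and Mgl2 with H2-Ab1) 274 and 148. A further 18 and 24 C1q-expressing cells were used for levels only. The alveolar macrophages were deeply covered, with 363921 and 357950 UMIs in the 2 pools and medians of 6285 and 6577 UMIs per cell, whereas the medians over all passing neonatal cells were 3785 and 3614. Levels are given as CPM, the UMIs of a gene per 1000000 UMIs summed over the cells of a class in a pool. No barcode was shared within an age, 14 were shared between ages, 2 of the 109 alveolar macrophages (both in pool 2) were predicted doublets and none had mixed hashtags.

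The cells were chosen by the measured UMIs of the gate genes, which are described without a test. Atp6v0d2, which encodes a subunit of the vacuolar proton pump, had 248 and 239 UMIs in the 2 pools and was seen in 48 of 61 and 45 of 48 alveolar macrophages. It lies on the minus strand of chromosome 4 (19876841 to 19922605, GRCm38). Ear1, an eosinophil-associated ribonuclease gene on chromosome 14 (43818765 to 43875517, minus strand), had 141 and 97 UMIs in 40 and 25 cells. Krt19, a keratin gene on chromosome 11 (100140810 to 100148665, minus strand), had 116 and 69 UMIs in 38 and 25 cells. Both genes were thus found in a smaller share of the cells than Atp6v0d2. F7, which encodes coagulation factor VII and lies on chromosome 8 (13026034 to 13035809, plus strand), had 112 and 89 UMIs in 44 and 40 cells. Car4, the gene of a membrane-bound carbonic anhydrase on chromosome 11 (84957786 to 84966044, plus strand), had 241 and 153 UMIs in 47 and 33 cells. All 5 genes were seen together in 36 cells, 4 of them in 25, 3 in 22, 2 in 13 and 1 in 13. The number of gate UMIs per cell had a median of 12 and a range of 3 to 50 in each pool.

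Genes outside the gate gave the cells the same name. Lpl, which encodes lipoprotein lipase and lies on chromosome 8 (68880491 to 68907448, plus strand), reached 1379 and 1500.2 CPM in alveolar macrophages, against 45.04 and 59.2 in classical monocytes, 143 and 114 in nonclassical monocytes and 23.4 and 40.03 in cDC2. It was seen in 53 of 61 and 44 of 48 alveolar macrophages. Plet1, a surface protein gene used as an alveolar macrophage marker, reached 1140.4 and 838 CPM in alveolar macrophages, against 1.25 and 0 in classical monocytes, 4.41 and 3.41 in nonclassical monocytes and 28.3 and 57.3 in cDC2. Plet1 was found in 93.4% and 97.9% of alveolar macrophages and in 0.588% and 0.629% of nonclassical monocytes, and, after each cell was thinned to 1000 UMIs, in 55.7% and 50% of alveolar macrophages and 0.235% and 0.210% of nonclassical monocytes. The level of free RNA in the droplets was not estimated, and Plet1 was higher in cDC2 than in either monocyte class. Of 14 alveolar macrophage markers outside the gate (Lpl, Chil3, Marco, Siglecf, Pparg, Plet1, Fabp1, Cidec, Krt79, Slc39a2, Bhlhe41, Abcg1, Ctsk and Trim29), an alveolar macrophage had a median of 7 with a UMI, and 101 of 109 had at least 3. At least 3 were seen in 1 of 327 classical monocytes, 40 of 1804 nonclassical monocytes, 5 of 422 cDC2 and 2 of 42 C1q-expressing cells. Among the 3919 adult cells, 32 had at least 3. At least 6 markers were seen in 73 alveolar macrophages, in 5 other neonatal cells and in no adult cell. Of those 5, 4 had enough gate UMIs but were kept out by the genes that must be absent. Summed over the 14 markers, alveolar macrophages had 4935 and 4054 CPM. The sums were 289 and 802 CPM in C1q-expressing cells, where Lpl, Marco, Pparg, Plet1 and Abcg1 were the 5 detected. In classical monocytes they were 130 and 135 CPM, in nonclassical monocytes 350 and 349, and in cDC2 96.3 and 162.

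**Figure D1:**
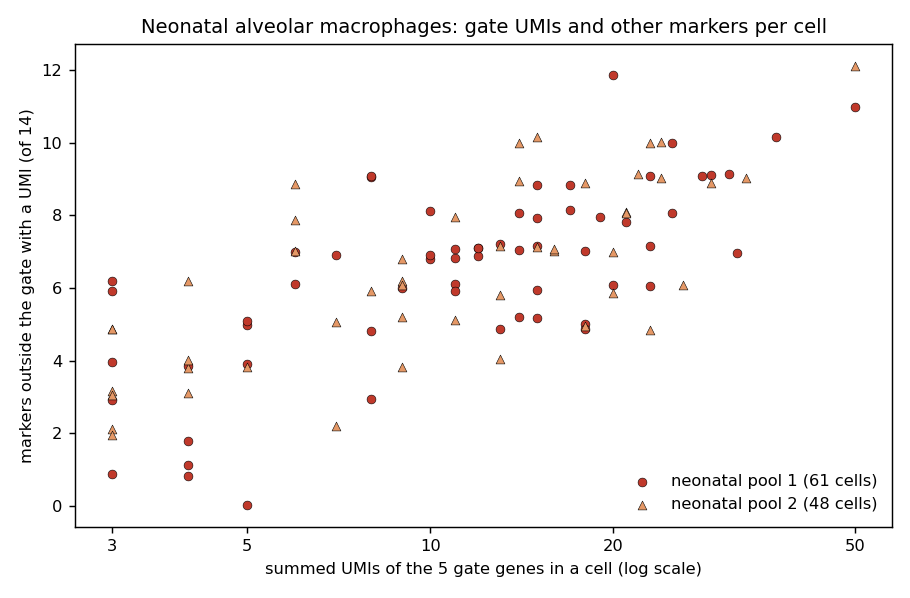
Each of the 109 alveolar macrophages by its summed UMIs of the 5 gate genes (log axis) and by the number of the 14 outside markers with a UMI, with circles for pool 1 (61 cells), triangles for pool 2 (48 cells) and points shifted at random by a small amount up or down. Cells of few gate UMIs lie lower, and both pools cover the range of 3 to 50 gate UMIs.

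The Ear family needs a caution, because its members are near-identical copies. The Ear1 and Ear2 transcripts were 96.8% identical, and Ear1 and Ear10 were 93.3% identical, so reads can be assigned to the wrong copy. Ear2 had 1346 and 1129 CPM in alveolar macrophages, against 126 and 110.2 in classical monocytes, 642 and 643 in nonclassical monocytes and 622 and 732 in cDC2, and it was seen in 91.8% and 100% of alveolar macrophages but also in 72.4% and 72.01% of nonclassical monocytes. Ear10 had no UMI in alveolar macrophages, and Ear6 had 3 UMIs in pool 1 and none in pool 2. The split of reads among these genes is therefore uncertain.

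Adult lungs gave no cell that met the rule. The shares were 1.35% in neonatal pool 1 (exact binomial 95% interval 1.03 to 1.73) and 1.06% in neonatal pool 2 (0.782 to 1.40), or 1.20% ± 0.206 (SD, n = 2 pools). In the adult pools 0 of 2051 and 0 of 1868 cells met it, and the exact binomial 95% interval for 0 of 3919 cells reached 0.0941% (3 counts of 3919 would be 0.0766%). These limits cover counting error only. The gate genes together had 1746 UMIs in neonatal cells and 25 in adult cells. Of the adult cells, 2 had at least 3 gate UMIs, with 4 the highest, and both were kept out by Cdh5 or Cldn5. Median depth was 3785 and 3614 UMIs per cell in the neonatal pools and 3201 and 3064.5 in the adult pools. Because each age was 1 library and the cells were chosen for this pattern, the difference was not tested. The sort kept only YFP+ cells, so these shares are of the sorted cells and not of the lung.

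Within the gate, cells with few gate UMIs carried less of the program than cells with many. The 24 cells with 3 to 5 gate UMIs had 72.9 CPM of the scavenger receptor gene Marco, against 247 in the 19 cells with 6 to 9, 249 in the 39 cells with 10 to 19 and 394 in the 27 cells with 20 or more. The keratin gene Krt79 had 8.10, 76.1, 99.0 and 209 CPM in the same order, and the fatty acid binding protein gene Fabp1 had 32.4, 85.6, 103 and 172 CPM. These genes and Abcg1 climbed through the 4 bins, while Lpl did not keep that order, with 858, 1675, 1349 and 1764 CPM. Plet1, Mrc1, Chil3, Siglecf and Ear2 did not keep it either. Chil3 had 97.2, 162, 370 and 145 CPM, and Siglecf had 56.7, 124, 73.3 and 77.1 CPM. Summed over the 14 outside markers, the level climbed, with 2340, 4215, 4690 and 5604 CPM. Fn1, which encodes fibronectin and had 1559.97 and 1394 CPM in classical monocytes, went the other way, with 1077, 495, 367 and 177 CPM. Median depth also climbed, with 5221, 5359, 6693 and 7571 UMIs per cell, so the number of gate UMIs moved with depth, and the part of depth in these gradients was not tested.

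The 13 cells that passed through 1 gate gene were the least certain. Of these, 6 passed through F7, 4 through Car4 and 3 through Atp6v0d2, and 7 of the 13 had at least 3 outside markers, against 94 of the 96 cells with at least 2 gate genes. Marco, Fabp1 and Krt79 had no UMI in them. Fn1 had 1434 CPM in the 13 cells and 357 CPM in the 96. The 6 F7 cells had 551 CPM of the monocyte gene Ly6c2 and 661 CPM of the monocyte chemokine receptor gene Ccr2, but 20 of the 22 Ly6c2 UMIs in all alveolar macrophages came from 1 cell. The 4 Car4 cells were all in pool 1, had a median of 1668.5 UMIs and none had 3 outside markers. Just outside the gate, 4 neonatal cells had 2 gate UMIs and 2 to 5 outside markers. Another 13 neonatal cells with enough gate UMIs were kept out by the genes that must be absent: 8 had Cdh5 or Cldn5 (median 1 outside marker), and 6 had Xcr1 or Clec9a (median 5.5), 1 of them with both kinds.

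**Figure D2:**
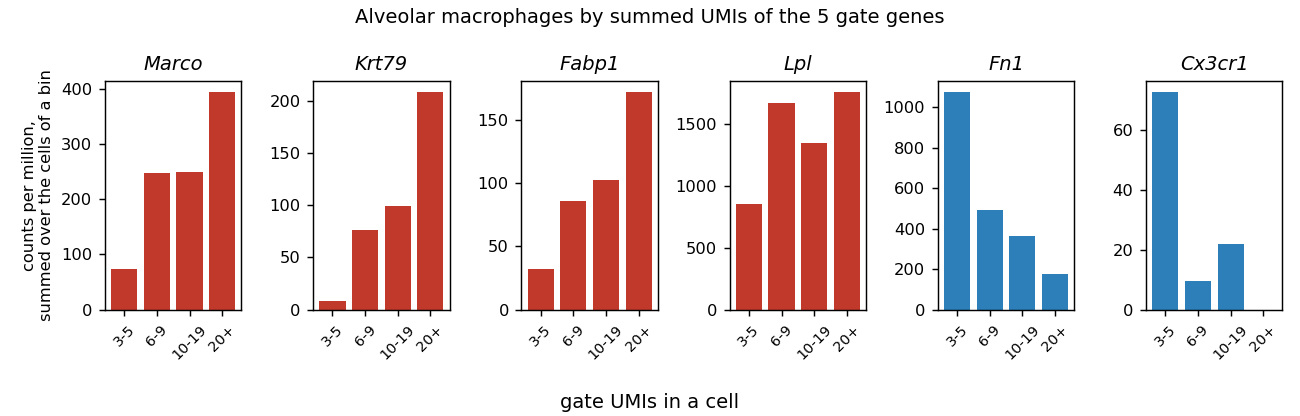
Levels of selected genes in alveolar macrophages split by their number of gate UMIs (3 to 5, 6 to 9, 10 to 19, 20 or more), in CPM of the UMIs summed over the cells of a bin, both pools together; each panel has its own axis from 0. Marco reached 72.9, 247, 249 and 394 CPM, while Fn1 had 1077, 495, 367 and 177.

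Markers of other cell types were searched in the 109 cells. The T cell and NK cell lists summed to 0 CPM in pool 1 and 5.59 CPM in pool 2, and the eosinophil genes Prg2, Epx, Il5ra and Ccr3 were at 0. Of 15 lung epithelial markers 10 were at 0, and the list summed to 157 and 92.2 CPM. Of 10 endothelial markers 7 were at 0, of which Cdh5 and Cldn5 were required to be. Neutrophil markers were present, with 10 of 11 detected and a sum of 800 and 212 CPM, while Ly6g was at 0. That list summed to 1406 and 3026 CPM in classical monocytes and 842 and 505 in nonclassical monocytes. In cDC2 it summed to 118 and 128 CPM, and in C1q-expressing cells to 219 and 175. Of the pool 1 counts for S100a8, 70 of 163 UMIs were in 1 cell. The interstitial macrophage list summed to 783 and 1919 CPM, against 11529 and 12859 CPM in C1q-expressing cells, and Folr2, Lyve1 and Pf4 were at 0. That list holds C1qa, C1qb and C1qc, which chose the C1q-expressing cells, so their sum had to be high. It also holds Mrc1, which was high in alveolar macrophages, and Apoe, which had 140 and 1319 CPM in them. Apoe thus made up most of the pool 2 sum, and 182 of its 472 UMIs there were in 1 cell. The same list summed to 1888 and 1900 CPM in classical monocytes, 1488 and 1626 in nonclassical monocytes and 101 and 127 in cDC2. In both monocyte classes most of the sum was Apoe. The mature dendritic cell list summed to 319 and 712 CPM in alveolar macrophages, against 75.1 and 84.03 in classical monocytes, 113 and 104 in nonclassical monocytes and 113 and 144 in cDC2. Of its 7 tested markers, 2 (Cd63 and Socs2) were called higher against each of these classes. Cd63, which is also on the list of lysosomal genes and proteases, made up 187 and 282 CPM of the sums in alveolar macrophages. In C1q-expressing cells the mature dendritic cell list summed to 428 and 304 CPM. The part of such cells or of free RNA in the comparisons was not tested.

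Alveolar macrophages were then compared with each class across 8308 genes, with the 2 pools as replicates. Against classical monocytes 1311 genes were higher (15.8%) and 1231 lower (14.8%; 30.6% in either direction) at an adjusted p under 0.05. Against nonclassical monocytes 1833 were higher (22.1%) and 1672 lower (20.1%), or 42.2% in either direction. Against cDC2 1342 were higher (16.2%) and 1274 lower (15.3%), or 31.5% in either direction. Against all 3 classes 575 genes were higher (6.92%) and 407 lower (4.9%). The gate genes were not tested. The 3 comparisons share the alveolar macrophage pools, so they are not independent, and genes that choose a class or go with it had to differ. The alveolar macrophage markers were picked as such, so their counts (30 of 30 tested higher against each monocyte class, 29 of 30 against cDC2) are a description.

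The genes that stood farthest above all 3 classes included amino acid, protease and lipid genes. Slc7a2, which encodes a transporter of cationic amino acids such as arginine, had 376 and 307 CPM in alveolar macrophages, against 0 and 0 in classical monocytes, 0.401 and 1.02 in nonclassical monocytes and 0 and 0 in cDC2. It was at least 174-fold higher than in classical monocytes, at least 315-fold higher than in cDC2, and higher than in nonclassical monocytes by 8.67 ± 0.31 on the log2 scale (adjusted p = 8.88e-24). The genes of this ranking were taken only from those with both alveolar macrophage pools above every compared pool. That separation was therefore fixed by the choice. Ctsk, the gene of the collagen-degrading protease cathepsin K, had 223 and 117 CPM in alveolar macrophages, against 0 and 0 in classical monocytes, 0.801 and 0.341 in nonclassical monocytes and 0 and 0 in cDC2. Ctsk was at least 86.6-fold higher than in classical monocytes. Ltc4s, which encodes leukotriene C4 synthase, had 415 and 416 CPM in alveolar macrophages, against 1.25 and 1.38 in classical monocytes, 9.22 and 13.6 in nonclassical monocytes and 4.89 and 3.25 in cDC2. Ltc4s gave a log2 difference of 5.15 ± 0.19 against nonclassical monocytes (adjusted p = 6.06e-24). Phgdh, which encodes the entry enzyme of serine synthesis, had 261 and 215 CPM in alveolar macrophages, against 2.50 and 0 in classical monocytes, 2.004 and 1.02 in nonclassical monocytes and 3.26 and 0 in cDC2. Hvcn1, the gene of a voltage-gated proton channel, had 162 and 179 CPM in alveolar macrophages, against 1.25 and 0 in classical monocytes, 0 and 1.02 in nonclassical monocytes and 0.544 and 2.16 in cDC2. Hvcn1 was 308-fold (counting interval 103 to 1516) higher than in nonclassical monocytes. In both of these genes every compared pool was under the alveolar macrophage pools, as the choice required.

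Others of the 20 genes act at the surface or in lysosomes. Mrc1, the mannose receptor gene, had 594 and 556 CPM in alveolar macrophages, against 1.25 and 1.38 in classical monocytes, 4.01 and 2.04 in nonclassical monocytes and 10.3 and 22.7 in cDC2. Mrc1 gave log2 differences of 7.55 ± 0.22 against nonclassical monocytes and 5.13 ± 0.19 against cDC2 (adjusted p = 5.37e-26 and 1.11e-22). Mertk, a receptor for dead cells, had 162 and 145 CPM in alveolar macrophages, against 2.50 and 4.13 in classical monocytes, 2.004 and 3.41 in nonclassical monocytes and 0 and 0 in cDC2. Mertk was at least 142-fold higher than in cDC2. Olr1, a receptor for oxidised lipoprotein, had 195 and 179 CPM in alveolar macrophages, against 6.25 and 8.26 in classical monocytes, 6.41 and 6.47 in nonclassical monocytes and 2.18 and 2.16 in cDC2. These uptake receptors were higher in both alveolar macrophage pools than in every compared pool, as the choice required. Gpnmb, a lysosomal glycoprotein gene, had 118 and 187 CPM in alveolar macrophages, against 6.25 and 4.13 in classical monocytes, 0.801 and 1.02 in nonclassical monocytes and 0 and 0 in cDC2. Spp1, which encodes osteopontin, had 239 and 386 CPM in alveolar macrophages, against 0 and 0 in classical monocytes, 0 and 1.02 in nonclassical monocytes and 14.1 and 4.33 in cDC2, from 87 UMIs in 26 cells of pool 1 and 138 UMIs in 28 cells of pool 2. Spp1 was at least 158-fold higher than in classical monocytes. Pld3, a lysosomal exonuclease gene, had 329.7 and 204 CPM in alveolar macrophages, against 5.004 and 2.75 in classical monocytes, 5.61 and 5.11 in nonclassical monocytes and 1.63 and 2.16 in cDC2. The remaining genes of the 20 were Krt79, Perp, Fabp1, Gmpr, Plet1, Cd63, Atxn1, Mgll and Ly75, with 113 and 97.8 CPM of Perp, the lowest mean of these 9, and 1140.4 and 838 CPM of Plet1, the highest, in the alveolar macrophage pools. Fabp1 missed the threshold against all 3 classes under the DESeq2 Wald test (adjusted p = 0.332, 0.0531 and 0.12).

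**Figure D3:**
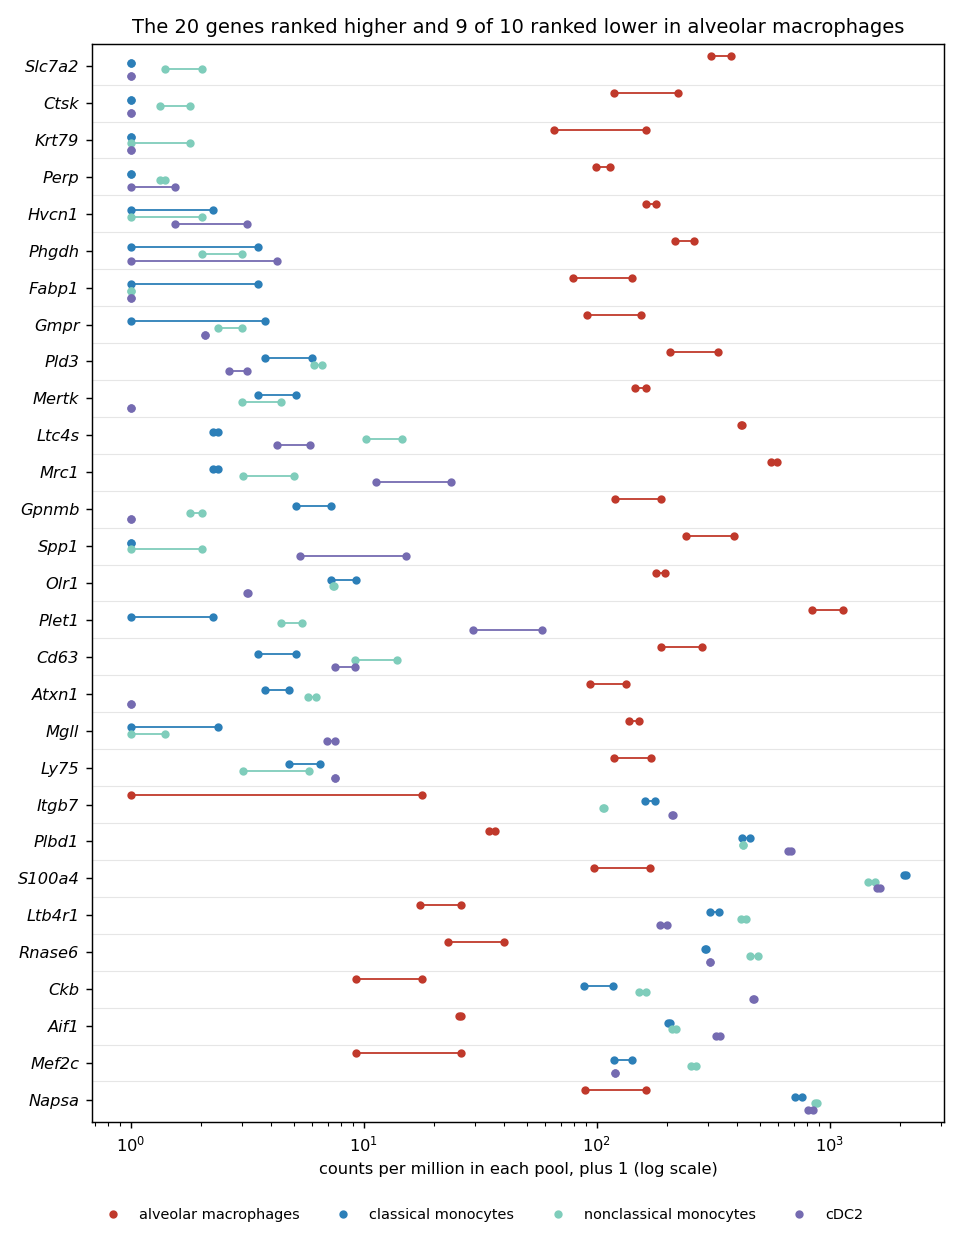
The 20 genes farthest above and 9 of the 10 farthest below all 3 compared classes in alveolar macrophages, in CPM plus 1 on a log axis. Each point is 1 neonatal pool and a line joins the 2 pools of a class. For Slc7a2 the alveolar macrophage pools stand at 376 and 307 CPM, right of every compared pool, and for S100a4 at 96.2 and 168 CPM, left of every compared pool. The choice of genes required this separation.

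The 250 bases before the transcription start (RefSeq, GRCm38.p6) were searched on both strands for motifs of factors known in these cells, for the 16 of the 20 genes with an entry, which have 18 promoters. GAGGAAG, a core bound by the macrophage factor PU.1, was in promoters of 5 genes (Ctsk, Fabp1, Mrc1, Spp1 and Cd63), and 10.6% of all 32851 promoters hold it. CACGTG, the E-box bound by the MITF and TFEC family and by BHLHE41, was in 1 (Mgll), and 6.02% of all promoters hold it. The direct repeat bound by PPARγ with RXR, searched as its exact consensus with any base as spacer, was in none, and 0.0335% of all promoters hold it. The motifs were chosen after the results were seen, and a match is a description of letters. The promoters of Mrc1 (chr2:14229164-14229413), Spp1 (chr5:104434861-104435110) and Mgll (chr6:88724162-88724411), all on the plus strand, are shown because these genes stand among the 20, with the matches in capitals. In Mrc1 the capitals are the motif read on the opposite strand.

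Mrc1: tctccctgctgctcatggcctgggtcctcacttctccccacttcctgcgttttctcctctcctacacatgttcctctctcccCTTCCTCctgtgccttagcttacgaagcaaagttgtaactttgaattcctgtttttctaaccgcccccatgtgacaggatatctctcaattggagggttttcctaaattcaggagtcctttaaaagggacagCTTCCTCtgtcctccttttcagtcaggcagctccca
Spp1: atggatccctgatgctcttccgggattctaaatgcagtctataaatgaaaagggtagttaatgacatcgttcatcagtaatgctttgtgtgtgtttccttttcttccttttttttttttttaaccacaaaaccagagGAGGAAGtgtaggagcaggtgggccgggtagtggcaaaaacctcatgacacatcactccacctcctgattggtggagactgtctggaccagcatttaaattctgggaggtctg
Mgll: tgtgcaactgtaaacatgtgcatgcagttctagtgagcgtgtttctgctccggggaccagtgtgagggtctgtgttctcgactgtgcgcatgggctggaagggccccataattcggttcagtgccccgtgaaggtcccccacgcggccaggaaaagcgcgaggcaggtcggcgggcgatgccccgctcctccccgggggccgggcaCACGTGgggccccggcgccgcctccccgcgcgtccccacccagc

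Below all 3 classes stood genes of adhesion and calcium binding. S100a4, a calcium-binding protein gene of motile cells, had 96.2 and 168 CPM in alveolar macrophages, against 2110.4 and 2085 in classical monocytes, 1553 and 1451 in nonclassical monocytes and 1644 and 1593 in cDC2. S100a4 gave a log2 difference of -3.78 ± 0.12 against cDC2 (adjusted p = 2.74e-17). Itgb7, an integrin subunit gene, had 0 and 16.8 CPM in alveolar macrophages, against 160.1 and 176 in classical monocytes, 105 and 106 in nonclassical monocytes and 209 and 211 in cDC2. No compared pool overlapped the alveolar macrophage pools in these genes, as the choice required. Plbd1, Ltb4r1 (a leukotriene B4 receptor), Rnase6, Ckb, Aif1, Mef2c and Napsa are others of the 10. Of these, Napsa, an aspartic protease gene, had the highest level, with 87.9 and 162 CPM in alveolar macrophages, against 759 and 709 in classical monocytes, 882 and 859 in nonclassical monocytes and 843 and 802 in cDC2. Ckb, the brain-type creatine kinase gene, had 8.24 and 16.8 CPM in alveolar macrophages, against 116 and 86.8 in classical monocytes, 161 and 150.2 in nonclassical monocytes and 469 and 464 in cDC2.

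Each class also had its own extremes. Ccl17, a chemokine gene of dendritic cells, had 5.50 and 11.2 CPM in alveolar macrophages, against 1519 and 1572 in cDC2. Ccl17 gave a log2 difference of -7.68 ± 0.19 (adjusted p = 4.5e-30). Cd209d, Gfra2, Adam23 and Fcrls had no UMI in alveolar macrophages, and Gfra2 was at least 31.4-fold lower than in cDC2, where it had 132 and 129 CPM. Thbs1, which encodes thrombospondin 1, had 27.5 and 22.3 CPM in alveolar macrophages, against 1009.5 and 929.8 in classical monocytes (-5.33 ± 0.23 on the log2 scale, adjusted p = 5.5e-13). The lowest genes against classical monocytes also held Plac8, with 104 and 209.5 CPM in alveolar macrophages, against 4521 and 5131 in classical monocytes. Slc12a2, an ion cotransporter gene, had 10.99 and 8.38 CPM in alveolar macrophages, against 626 and 616 in nonclassical monocytes (-6.00 ± 0.23, adjusted p = 1.07e-23), and its level in classical monocytes was 17.5 and 9.64 CPM. Against nonclassical monocytes S1pr5, a receptor for sphingosine 1-phosphate, had 2.75 and 5.59 CPM in alveolar macrophages, against 149 and 155 in nonclassical monocytes.

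Of 38 tested genes of lipid and surfactant handling, 25 were called higher and 2 lower against classical monocytes, 24 higher and 0 lower against nonclassical monocytes and 28 higher and 2 lower against cDC2, and 18 were higher against all 3. The median log2 difference of the list was 1.62, 1.06 and 1.83 in that order, against 0.01, 0.02 and -0.01 over all genes tested. Of the 18, Pparg, Lpl, Fabp1, Fabp4, Fabp5, Plin2, Cidec and Abcg1 were also among the alveolar macrophage markers, which were picked as such. That part of the count is a description. Of all genes tested, 15.8% were higher and 14.8% lower against classical monocytes, and 22.1% and 20.1% against nonclassical monocytes. Against cDC2 the shares were 16.2% and 15.3%, and 6.92% were higher against all 3. These shares also stand beside the counts of the lists below. Abcg1, which exports cholesterol, had 799.6 and 637 CPM in alveolar macrophages, against 58.8 and 31.7 in classical monocytes, 116 and 146 in nonclassical monocytes and 29.9 and 42.2 in cDC2. Abcg1 gave log2 differences of 3.92 ± 0.23, 2.44 ± 0.17 and 4.22 ± 0.22. Nceh1, which hydrolyses cholesterol esters, had 467 and 413 CPM in alveolar macrophages, against 61.3 and 53.7 in classical monocytes, 36.9 and 42.6 in nonclassical monocytes and 21.8 and 12.98 in cDC2. Nceh1 differed by 3.45 ± 0.14 (log2) against nonclassical monocytes (adjusted p = 8.48e-23). Both genes of cholesterol handling were thus higher in each comparison. Plin2, a coat protein of lipid droplets, had 967 and 824 CPM in alveolar macrophages, against 260.2 and 287 in classical monocytes, 419 and 412 in nonclassical monocytes and 113 and 129.8 in cDC2. Plin2 differed by 1.66 ± 0.11 (log2) against classical monocytes. Lipa, the lysosomal acid lipase gene, had 382 and 282 CPM in alveolar macrophages, against 77.6 and 77.1 in classical monocytes, 136 and 150.2 in nonclassical monocytes and 51.1 and 54.1 in cDC2. Lipa differed by 2.51 ± 0.16 (log2) against cDC2. Pla2g15, a lysosomal phospholipase gene that acts on surfactant lipid, had 115 and 94.99 CPM in alveolar macrophages, against 16.3 and 11.02 in classical monocytes, 20.8 and 22.5 in nonclassical monocytes and 3.26 and 5.41 in cDC2. Pla2g15 differed by 2.26 ± 0.25 (log2) against nonclassical monocytes. These lysosomal lipid genes were also higher in all 3 comparisons. Cidec, a lipid droplet gene, had 98.9 and 78.2 CPM in alveolar macrophages and no UMI in the other 3 classes. Cidec was at least 160.5-fold higher than in nonclassical monocytes, though not past the threshold in the DESeq2 Wald test (adjusted p = 0.222, 0.0894 and 0.181). Mgll, the monoacylglycerol lipase gene, had 151 and 137 CPM in alveolar macrophages, against 0 and 1.38 in classical monocytes, 0.401 and 0 in nonclassical monocytes and 5.98 and 6.49 in cDC2.

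Not every lipid gene set the alveolar macrophages apart. Cd36, a fatty acid uptake receptor gene, had 201 and 288 CPM in alveolar macrophages, against 0 and 6.89 in classical monocytes, 349.8 and 294 in nonclassical monocytes and 9.79 and 12.98 in cDC2. It did not pass the test against nonclassical monocytes (-0.41 ± 0.19, adjusted p = 0.0995). Fabp4, a fatty acid carrier of adipocytes and macrophages, had 104 and 64.3 CPM in alveolar macrophages, against 1.25 and 0 in classical monocytes, 44.1 and 51.4 in nonclassical monocytes and 0 and 0 in cDC2. Its difference against nonclassical monocytes (0.81 ± 0.24, adjusted p = 0.00673) was lost without alveolar macrophage pool 1 (0.37, adjusted p = 0.439) and without nonclassical monocyte pool 1 (0.66, adjusted p = 0.0727). Under the DESeq2 Wald test its adjusted p was 0.111. Fabp5, another fatty acid carrier, had 978 and 877 CPM in alveolar macrophages, against 214 and 145 in classical monocytes, 342 and 212 in nonclassical monocytes and 107 and 103 in cDC2. Its log2 differences were 2.31 ± 0.35, 1.74 ± 0.30 and 2.98 ± 0.35 (adjusted p = 0.00947, 0.0107 and 0.00348), and the first was 2.20, adjusted p = 0.0676 without alveolar macrophage pool 1. Without alveolar macrophage pool 2 it was 2.37, adjusted p = 0.055, and without classical monocyte pool 2 2.04, adjusted p = 0.0537. The second was 1.62, adjusted p = 0.0817 without alveolar macrophage pool 1 and 1.79, adjusted p = 0.0628 without pool 2. Apoe, the apolipoprotein E gene, was uneven between the alveolar macrophage pools, with 140.1 and 1319 CPM in alveolar macrophages, against 1705 and 1726 in classical monocytes, 1373 and 1503 in nonclassical monocytes and 12.5 and 15.1 in cDC2; 182 of its 472 UMIs in pool 2 were in 1 cell.

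Among 33 tested receptors and regulators, 14 were called higher and 10 lower against classical monocytes, 11 higher and 15 lower against nonclassical monocytes and 17 higher and 7 lower against cDC2. The medians were -0.07, -0.35 and 0.46. Against all 3, 9 were higher (Csf2rb, Tgfbr2, Cebpa, Bhlhe41, Pparg, Rxra, Nr1h3, Tfec and Mitf). Of these, Bhlhe41 and Pparg were also among the alveolar macrophage markers picked as such. Csf2rb, which encodes the shared β chain of the GM-CSF receptor, had 332 and 274 CPM in alveolar macrophages, against 188 and 176 in classical monocytes, 214 and 203 in nonclassical monocytes and 164 and 171 in cDC2. Csf2rb gave log2 differences of 0.69 ± 0.14, 0.53 ± 0.12 and 0.70 ± 0.13. The second was 0.34, adjusted p = 0.085 without alveolar macrophage pool 1. Csf2ra, the α chain, had 289 and 288 CPM in alveolar macrophages, against 271 and 288 in classical monocytes, 365 and 367 in nonclassical monocytes and 251 and 259.7 in cDC2. Csf2ra was lower than in nonclassical monocytes, with a log2 difference of -0.35 ± 0.11 (adjusted p = 0.00839). Under the DESeq2 Wald test that adjusted p was 0.0505. The α chain did not pass the test against classical monocytes or cDC2. Tgfbr2, a TGF-β receptor gene, had 184 and 170.4 CPM in alveolar macrophages, against 38.8 and 34.4 in classical monocytes, 91.4 and 88.9 in nonclassical monocytes and 39.7 and 38.95 in cDC2. Tgfbr2 differed by 2.22 ± 0.21 (log2) against classical monocytes (adjusted p = 1.47e-11). Pparg, which encodes PPARγ, had 115 and 134 CPM in alveolar macrophages, against 16.3 and 8.26 in classical monocytes, 65.3 and 64.4 in nonclassical monocytes and 2.18 and 4.33 in cDC2. Pparg gave log2 differences of 3.27 ± 0.30, 0.93 ± 0.20 and 5.22 ± 0.35 (adjusted p = 1.47e-11, 0.000172 and 1.04e-15). Nonclassical monocytes were the nearest to the alveolar macrophages in Pparg, and cDC2 the farthest. Bhlhe41, a transcriptional repressor gene of alveolar macrophages, had 76.9 and 67.05 CPM in alveolar macrophages, against 0 and 0 in classical monocytes, 0.401 and 0.681 in nonclassical monocytes and 0 and 0 in cDC2. Bhlhe41 was at least 36.6-fold higher than in classical monocytes. Cebpa, a myeloid factor, had 148 and 159 CPM in alveolar macrophages, against 47.5 and 39.9 in classical monocytes, 21.2 and 24.9 in nonclassical monocytes and 34.8 and 38.95 in cDC2. Cebpa differed by 2.72 ± 0.21 (log2) against nonclassical monocytes. Nr1h3, the gene of the oxysterol sensor LXRα, had 49.5 and 30.7 CPM in alveolar macrophages, against 0 and 1.38 in classical monocytes, 9.62 and 7.84 in nonclassical monocytes and 0 and 0 in cDC2. These factors were higher in both alveolar macrophage pools than in every compared pool. Tfec, a factor of the family that acts on lysosomal genes, had 135 and 106 CPM in alveolar macrophages, against 31.3 and 24.8 in classical monocytes, 3.21 and 4.43 in nonclassical monocytes and 0 and 0 in cDC2. Mitf, its relative, had 71.4 and 75.4 CPM in alveolar macrophages, against 13.8 and 15.2 in classical monocytes, 20.04 and 17.4 in nonclassical monocytes and 5.44 and 6.49 in cDC2. Rxra, the partner of PPARγ, had 54.96 and 61.5 CPM in alveolar macrophages, against 33.8 and 20.7 in classical monocytes, 20.04 and 21.5 in nonclassical monocytes and 21.2 and 23.8 in cDC2. Against classical monocytes it gave 1.03 ± 0.32 (adjusted p = 0.0118), with 0.93, adjusted p = 0.0983 without alveolar macrophage pool 2 and 0.70, adjusted p = 0.153 without classical monocyte pool 2. Under the DESeq2 Wald test its adjusted p was 0.0691.

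Several genes of other macrophages and of monocytes were lower than in both monocyte classes. Maf, which encodes a factor of interstitial and other tissue macrophages, had 0 and 5.59 CPM in alveolar macrophages, against 46.3 and 42.7 in classical monocytes, 48.9 and 58.9 in nonclassical monocytes and 0.544 and 1.08 in cDC2. Maf rested on 2 UMIs in alveolar macrophages, and was 16.1-fold (counting interval 4.29 to 136) lower than in classical monocytes (adjusted p = 1.61e-06). Maf did not pass the test against cDC2 (adjusted p = 0.406). Klf2, a quiescence and trafficking factor, had 98.9 and 81.02 CPM in alveolar macrophages, against 502 and 534 in classical monocytes, 745 and 714 in nonclassical monocytes and 119 and 88.7 in cDC2. Klf2 differed by -3.03 ± 0.14 (log2) against nonclassical monocytes. Nr4a1, needed for nonclassical monocytes, had 87.9 and 83.8 CPM in alveolar macrophages, against 265 and 340.2 in classical monocytes, 628 and 652 in nonclassical monocytes and 84.8 and 97.4 in cDC2. Nr4a1 differed by -2.91 ± 0.15 (log2) against nonclassical monocytes (adjusted p = 1.39e-19). Both were lower than in both monocyte classes and did not pass the test against cDC2 (adjusted p = 0.0752 for Klf2 and 0.482 for Nr4a1). Id2, a regulator of dendritic cells, had 176 and 189.97 CPM in alveolar macrophages, against 266 and 277 in classical monocytes, 210.4 and 250.4 in nonclassical monocytes and 639.5 and 611 in cDC2. Id2 was lower than in cDC2, with a log2 difference of -1.94 ± 0.12 (adjusted p = 1.61e-16). Zbtb46, whose promoter drives the reporter, had 2.75 and 8.38 CPM in alveolar macrophages, against 1.25 and 0 in classical monocytes, 5.61 and 4.43 in nonclassical monocytes and 45.7 and 53.02 in cDC2, from 4 UMIs in 4 alveolar macrophages. It was lower than in cDC2, with a log2 difference of -3.27 ± 0.51 (adjusted p = 1.54e-06), and did not pass the test against the monocytes.

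**Figure D4:**
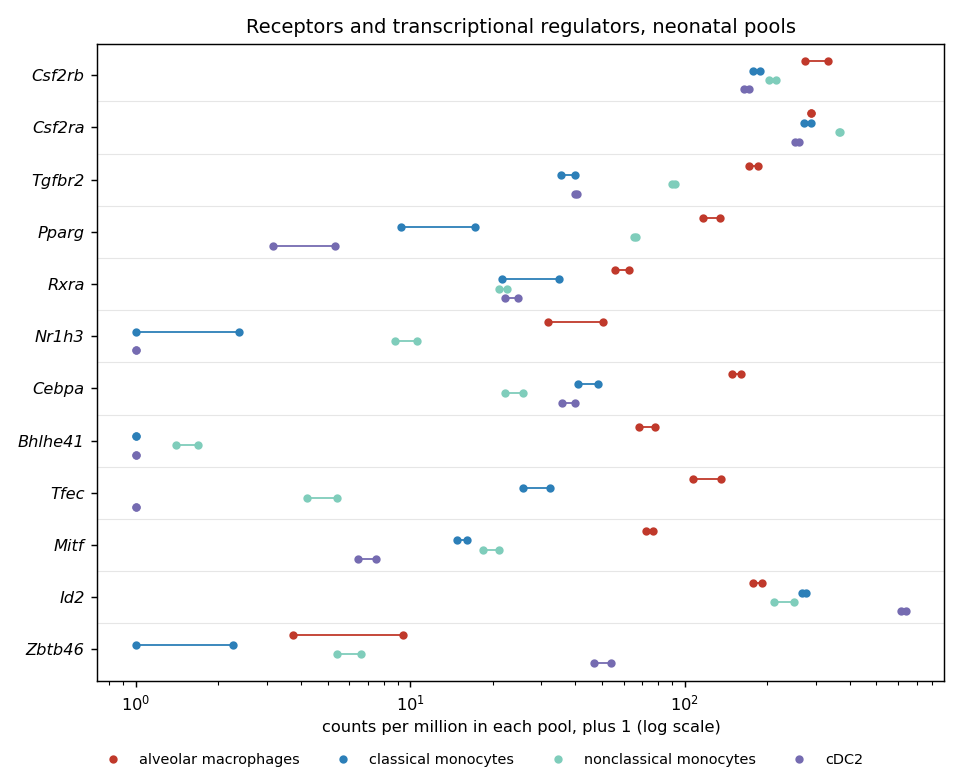
Levels of receptors and regulators of macrophage identity in each neonatal pool, by cell class, in CPM plus 1 on a log axis, 1 point per pool with a line joining the 2 pools of a class. Pparg had 115 and 134 CPM in the alveolar macrophage pools and 2.18 and 4.33 in cDC2.

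Of 28 tested scavenger and uptake receptors, 15 were called higher and 5 lower against classical monocytes, 14 higher and 6 lower against nonclassical monocytes and 23 higher and 4 lower against cDC2. The medians were 0.71, 0.89 and 2.26, and 0.52 against classical monocytes with genes of no UMI in a class at their bounds. Against all 3, 10 were higher and 2 lower (Clec4a1 and Itgam). Of the 10, Marco, Mrc1, Olr1, Siglec1 and Siglecf were also among the alveolar macrophage markers picked as such, so that part is a description. Marco, which binds particles and bacteria, had 357 and 168 CPM in alveolar macrophages, against 1.25 and 0 in classical monocytes, 17.6 and 15.7 in nonclassical monocytes and 0 and 1.08 in cDC2. Marco gave log2 differences of 3.97 ± 0.33 against nonclassical monocytes (adjusted p = 1.3e-06). Marco was 401-fold (counting interval 71.2 to 15939.9) higher than in classical monocytes. Axl, a receptor that binds phosphatidylserine through Gas6, had 453 and 307 CPM in alveolar macrophages, against 21.3 and 23.4 in classical monocytes, 16.03 and 18.4 in nonclassical monocytes and 74.5 and 68.2 in cDC2. Axl differed by 2.24 ± 0.16 (log2) against cDC2 (adjusted p = 1.03e-14). Siglecf, a sialic acid receptor of alveolar macrophages and eosinophils, had 90.7 and 67.05 CPM in alveolar macrophages, against 0 and 0 in classical monocytes, 0 and 0.681 in nonclassical monocytes and 11.4 and 17.3 in cDC2. Siglecf was at least 40.1-fold higher than in classical monocytes. All 3 of these were higher in every comparison. Siglec1, another sialic acid receptor gene, rested on 13 UMIs, with 19.2 and 16.8 CPM in alveolar macrophages, against 2.50 and 0 in classical monocytes, 1.60 and 2.73 in nonclassical monocytes and 0 and 0 in cDC2. Its call against classical monocytes (adjusted p = 0.00823) was lost without classical monocyte pool 2 (2.72, adjusted p = 0.0955). Itgam, which encodes CD11b, had 60.5 and 44.7 CPM in alveolar macrophages, against 408 and 353 in classical monocytes, 551 and 529 in nonclassical monocytes and 212 and 213 in cDC2. Itgam differed by -3.37 ± 0.16 (log2) against nonclassical monocytes (adjusted p = 1.17e-20). Lgals3, the galectin 3 gene, had 2995 and 3285 CPM in alveolar macrophages, against 2775 and 2725 in classical monocytes, 1527 and 1577 in nonclassical monocytes and 962 and 834 in cDC2. Lgals3 did not pass the test against classical monocytes (0.14 ± 0.06, adjusted p = 0.0801).

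Of 38 tested lysosomal genes and proteases, 17 were called higher and 9 lower against classical monocytes, 23 higher and 7 lower against nonclassical monocytes and 30 higher and 4 lower against cDC2. The medians were 0.32, 0.68 and 1.36. Against all 3, 16 were higher, of which Ctsk was also an alveolar macrophage marker picked as such. Ctsd, the cathepsin D gene, had 3619 and 3084 CPM in alveolar macrophages, against 269 and 267 in classical monocytes, 326 and 330.5 in nonclassical monocytes and 35.9 and 53.02 in cDC2. Ctsd gave log2 differences of 3.59 ± 0.10, 3.34 ± 0.09 and 6.15 ± 0.12. Ctsl, the cathepsin L gene, had 368 and 259.8 CPM in alveolar macrophages, against 48.8 and 61.99 in classical monocytes, 46.1 and 49.1 in nonclassical monocytes and 8.16 and 7.57 in cDC2. Ctsl differed by 5.13 ± 0.24 (log2) against cDC2. Ctsb, the cathepsin B gene, had 668 and 620.2 CPM in alveolar macrophages, against 634 and 641 in classical monocytes, 1487 and 1536 in nonclassical monocytes and 151 and 179 in cDC2. Ctsb was lower than in nonclassical monocytes (-1.24 ± 0.08, adjusted p = 2.69e-16) but higher than in cDC2 (1.83 ± 0.10). The cathepsins thus did not all differ in the same direction. Ctss, a cathepsin of antigen processing, had 2489.6 and 2562 CPM in alveolar macrophages, against 1469 and 1419 in classical monocytes, 1589 and 1604 in nonclassical monocytes and 843 and 913 in cDC2. Ctss differed by 0.65 ± 0.06 (log2) against nonclassical monocytes. Lamp1, a lysosomal membrane protein gene, had 899 and 827 CPM in alveolar macrophages, against 803 and 758 in classical monocytes, 779 and 786 in nonclassical monocytes and 88.1 and 118 in cDC2 and was higher against cDC2 (2.95 ± 0.11). With the comparator gates doubled, 16 higher and 5 lower were called against classical monocytes, and without alveolar macrophage pool 2, 21 higher and 4 lower against nonclassical monocytes.

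Of 30 tested genes of iron, haem and redox, 11 were called higher and 10 lower against classical monocytes, 8 higher and 13 lower against nonclassical monocytes and 17 higher and 2 lower against cDC2. The medians were 0.04, -0.37 and 0.91. Fth1 and Ftl1, which encode the ferritin chains that store iron, were measured beside genes that handle oxidants. Fth1 had 14484 and 12731 CPM in alveolar macrophages, against 3614 and 3493 in classical monocytes, 4617 and 4707 in nonclassical monocytes and 3572 and 3549 in cDC2. Fth1 gave log2 differences of 1.89 ± 0.05, 1.54 ± 0.05 and 1.77 ± 0.05. Ftl1 had 7886 and 7744 CPM in alveolar macrophages, against 5049 and 4284 in classical monocytes, 5502 and 5389 in nonclassical monocytes and 2630.4 and 2491 in cDC2. Both ferritin genes were higher in each comparison, together with Prdx1, Txnrd1 and Txn1. Gpx1, a glutathione peroxidase gene, had 1195 and 1215 CPM in alveolar macrophages, against 1984 and 2076 in classical monocytes, 2239.6 and 2204 in nonclassical monocytes and 1613 and 1532 in cDC2. Gpx1 was lower in each comparison (-0.89 ± 0.06 against nonclassical monocytes, adjusted p = 1.35e-15). Mt1, a metallothionein gene, had 407 and 430.2 CPM in alveolar macrophages, against 22.5 and 27.5 in classical monocytes, 22.8 and 16.7 in nonclassical monocytes and 344 and 305 in cDC2. Mt1 was higher than in both monocyte classes. Mt1 did not pass the test against cDC2 (0.20 ± 0.12, adjusted p = 0.243). Hp, the haptoglobin gene, had 24.7 and 64.3 CPM in alveolar macrophages, against 986 and 1161 in classical monocytes, 526 and 538 in nonclassical monocytes and 4.35 and 2.16 in cDC2. Hp differed by -4.64 ± 0.19 (log2) against classical monocytes. Cybb, the NADPH oxidase subunit gene, had 1269.5 and 1380.1 CPM in alveolar macrophages, against 1307 and 1478 in classical monocytes, 1736 and 1799.8 in nonclassical monocytes and 215 and 214 in cDC2. Cybb was higher than in cDC2 (2.46 ± 0.08).

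Of 27 tested cytokine and chemokine genes, 10 were called higher and 5 lower against classical monocytes, 10 higher and 4 lower against nonclassical monocytes and 10 higher and 7 lower against cDC2. The medians were 0.44, 0.83 and 0.53. Ccl6, Cxcl1, Cxcl2, Il1a, Il1rn and Il18 were higher against all 3. Of these, Il18 was also an alveolar macrophage marker picked as such. Ccl6, a monocyte-attracting chemokine, had 3599.7 and 3710.02 CPM in alveolar macrophages, against 1066 and 924 in classical monocytes, 943 and 934 in nonclassical monocytes and 294 and 318 in cDC2. Ccl6 gave log2 differences of 1.83 ± 0.07, 1.95 ± 0.07 and 3.43 ± 0.07. Il18, an IL-1 family cytokine that is made as an inactive precursor, had 462 and 386 CPM in alveolar macrophages, against 45.04 and 26.2 in classical monocytes, 25.2 and 15.7 in nonclassical monocytes and 24.5 and 28.1 in cDC2. Il18 differed by 4.38 ± 0.18 (log2) against nonclassical monocytes. Il1rn, the natural antagonist of IL-1, had 223 and 148 CPM in alveolar macrophages, against 8.76 and 6.89 in classical monocytes, 20.8 and 17.7 in nonclassical monocytes and 1.09 and 2.16 in cDC2. Il1rn differed by 6.76 ± 0.38 (log2) against cDC2. Il1a, which encodes IL-1α, had 46.7 and 41.9 CPM in alveolar macrophages, against 0 and 0 in classical monocytes, 1.60 and 0.681 in nonclassical monocytes and 2.18 and 1.08 in cDC2. Il1a was at least 22.5-fold higher than in classical monocytes. Il18, Il1rn and Il1a thus stood above the other classes, while Il1b, of the same family, was tested and not called higher against all 3. Cxcl2, a neutrophil attractant gene, had 673 and 464 CPM in alveolar macrophages, against 180.1 and 175 in classical monocytes, 114 and 100.2 in nonclassical monocytes and 11.96 and 23.8 in cDC2. Cxcl2 differed by 1.63 ± 0.18 (log2) against classical monocytes. Tnf had 82.4 and 78.2 CPM in alveolar macrophages, against 15.01 and 28.9 in classical monocytes, 23.2 and 21.5 in nonclassical monocytes and 47.3 and 49.8 in cDC2. Tnf passed the test against the monocytes but not against cDC2 (0.57 ± 0.25, adjusted p = 0.0763). Ccr2, the receptor that draws monocytes out of bone marrow, had 41.2 and 115 CPM in alveolar macrophages, against 1147 and 1117 in classical monocytes, 286 and 261 in nonclassical monocytes and 440.5 and 512 in cDC2. Ccr2 differed by -3.92 ± 0.26 (log2) against classical monocytes (adjusted p = 1.17e-05). Cx3cr1, the fractalkine receptor gene, had 19.2 and 25.1 CPM in alveolar macrophages, against 160.1 and 165 in classical monocytes, 591 and 663 in nonclassical monocytes and 14.1 and 12.98 in cDC2. Cx3cr1 differed by -4.83 ± 0.19 (log2) against nonclassical monocytes. With no filter on low counts, 11 higher and 8 lower were called against classical monocytes. With a gate of 6 UMIs, 10 higher and 7 lower were called against nonclassical monocytes.

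Most MHC class II presentation genes were lower than in cDC2: of 11 tested, 0 were called higher and 1 lower against classical monocytes, 3 higher and 2 lower against nonclassical monocytes and 0 higher and 10 lower against cDC2. The medians were 0.29, 0.18 and -4.64. Of the 3 called higher against nonclassical monocytes, H2-DMa kept its call in every alternative. Ciita (adjusted p = 0.0354) gave 0.0782 without nonclassical monocyte pool 1 and 0.0529 without pool 2, and 0.165 and 0.169 without alveolar macrophage pools 1 and 2. H2-DMb2 (adjusted p = 0.047) gave 0.0719 without nonclassical monocyte pool 1, 0.105 without pool 2, 0.565 without alveolar macrophage pool 2 and 0.491 without predicted doublets. Some of these genes mark the cDC2 gate by association, since H2-Ab1 chose those cells. H2-Aa, an MHC class II chain, had 43.97 and 198 CPM in alveolar macrophages, against 61.3 and 52.3 in classical monocytes, 132 and 81.4 in nonclassical monocytes and 7670.4 and 7977 in cDC2. H2-Aa gave a log2 difference of -6.18 ± 0.48 against cDC2 (adjusted p = 0.000898). Cd74, the invariant chain, had 206 and 746 CPM in alveolar macrophages, against 240.2 and 245 in classical monocytes, 545 and 369.98 in nonclassical monocytes and 24021 and 24522 in cDC2. Cd74 gave a log2 difference of -5.84 ± 0.54 (adjusted p = 0.00168). Of the 267 Cd74 UMIs in pool 2, 125 were in 1 cell. H2-DMa, which loads peptide onto class II, had 299.5 and 282 CPM in alveolar macrophages, against 230.2 and 249 in classical monocytes, 109 and 104 in nonclassical monocytes and 1392 and 1431 in cDC2. H2-DMa was above nonclassical monocytes (1.44 ± 0.11) and below cDC2 (-2.44 ± 0.09). Ciita, the master regulator of class II, had 10.99 and 11.2 CPM in alveolar macrophages, against 1.25 and 4.13 in classical monocytes, 3.21 and 3.75 in nonclassical monocytes and 231 and 278 in cDC2. Ciita was lower than in cDC2 (-4.64 ± 0.28, adjusted p = 5.56e-17).

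Most of the tested interferon-stimulated genes were lower than in both monocyte classes. Ifit1, Ifit2, Ifit3, Rsad2 and Usp18 had too few counts to be tested. Of 19 tested, 0 were called higher and 17 lower against classical monocytes, and 0 higher and 15 lower against nonclassical monocytes. Against cDC2, 3 were called higher and 4 lower. The medians were -3.28, -2.70 and -0.08, and -2.69 against nonclassical monocytes with genes of no UMI in a class at their bounds; that against cDC2 was then 0. Without cDC2 pool 1, 0 higher and 4 lower were called against cDC2, and with a gate of 6 UMIs or with 2 or more gate genes 1 higher and 6 lower. Against cDC2, Ifi204 (adjusted p = 0.0401) gave 0.213 and Ly6e (adjusted p = 0.000195) gave 0.0772 without cDC2 pool 1. Without cDC2 pool 2, Ifi204 gave 0.0532, and without alveolar macrophage pool 2 0.699. Ifitm3, which restricts virus entry, had 60.5 and 176 CPM in alveolar macrophages, against 3514 and 4088 in classical monocytes, 2821 and 2960.2 in nonclassical monocytes and 338 and 391.7 in cDC2. Ifitm3 differed by -5.06 ± 0.34 (log2) against classical monocytes (adjusted p = 0.000613). Ifitm6, a relative of it, had 13.7 and 58.7 CPM in alveolar macrophages, against 841 and 828 in classical monocytes, 722 and 738 in nonclassical monocytes and 48.9 and 44.4 in cDC2. Ifitm6 differed by -4.35 ± 0.22 (log2) against nonclassical monocytes. Irf7, which amplifies interferon production, had 8.24 and 2.79 CPM in alveolar macrophages, against 81.3 and 132 in classical monocytes, 68.5 and 65.4 in nonclassical monocytes and 0.544 and 2.16 in cDC2. Irf7 differed by -4.28 ± 0.46 (log2) against classical monocytes (adjusted p = 1.06e-09). Ly6e had 283 and 282 CPM in alveolar macrophages, against 1486 and 1475 in classical monocytes, 1768 and 1849 in nonclassical monocytes and 166 and 197 in cDC2. Ly6e was lower than in both monocyte classes (-2.44 ± 0.09 and -2.69 ± 0.09). Slfn2 had 214 and 254 CPM in alveolar macrophages, against 661 and 585 in classical monocytes, 435 and 426 in nonclassical monocytes and 243 and 225 in cDC2. Slfn2 did not pass the test against cDC2.

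Of 7 tested complement genes, 1 was called higher and 4 lower against classical monocytes, 0 higher and 4 lower against nonclassical monocytes and 3 higher and 4 lower against cDC2. The medians were -0.95, -0.58 and -2.17. C3, the central complement component, had 173 and 94.99 CPM in alveolar macrophages, against 457 and 459 in classical monocytes, 256 and 272 in nonclassical monocytes and 3.81 and 3.25 in cDC2. C3 was below both monocyte classes (-1.82 ± 0.16 and -0.98 ± 0.16) and above cDC2 (5.02 ± 0.32). Cfp, the properdin gene, had 107 and 78.2 CPM in alveolar macrophages, against 170.1 and 154 in classical monocytes, 145 and 130.1 in nonclassical monocytes and 378 and 415 in cDC2. Against nonclassical monocytes it gave -0.58 ± 0.17 (adjusted p = 0.00623), with -0.40, adjusted p = 0.19 without alveolar macrophage pool 2. Of 10 tested coagulation and fibrinolysis genes, 3 were called higher and 3 lower against classical monocytes, 4 higher and 3 lower against nonclassical monocytes and 7 higher and 0 lower against cDC2. The medians were 0.80, 0.17 and 3.00. F10, the coagulation factor X gene, had 209 and 154 CPM in alveolar macrophages, against 135 and 176 in classical monocytes, 163 and 176 in nonclassical monocytes and 1.63 and 1.08 in cDC2. F10 gave a log2 difference of 6.73 ± 0.36 against cDC2 (adjusted p = 1.02e-18). F10 did not pass the test against the monocytes. Plaur, the urokinase receptor gene, had 327 and 293 CPM in alveolar macrophages, against 204 and 178 in classical monocytes, 227 and 201 in nonclassical monocytes and 16.9 and 12.98 in cDC2. Plaur differed by 4.16 ± 0.19 (log2) against cDC2. Serpinb2, an inhibitor of plasminogen activation, had no UMI in alveolar macrophages, against 52.5 and 26.2 CPM in classical monocytes and 46.9 and 45.7 in nonclassical monocytes. Serpinb2 was at least 9.62-fold and at least 11.1-fold lower. Tgm2, the transglutaminase gene, was uneven between the alveolar macrophage pools, with 223 and 50.3 CPM in alveolar macrophages, against 5.004 and 6.89 in classical monocytes, 109 and 117 in nonclassical monocytes and 3.81 and 0 in cDC2, and its direction against nonclassical monocytes depends on the setting (0.27 ± 0.57, adjusted p = 0.764). Without alveolar macrophage pool 1 the difference was -1.22, adjusted p = 0.0014. With comparator gates doubled, 2 higher and 2 lower of the coagulation genes were called against nonclassical monocytes.

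Of 25 tested genes of oxidative phosphorylation, 4 were called higher and 5 lower against classical monocytes, 15 higher and 0 lower against nonclassical monocytes and 4 higher and 5 lower against cDC2. The medians were -0.15, 0.33 and 0.05. Of all genes tested, 15.8% were higher and 14.8% lower against classical monocytes, and 16.2% and 15.3% against cDC2. The counts of the list against these classes were near those shares. Against nonclassical monocytes 22.1% of all genes were higher and 20.1% lower. Atp5g3, an ATP synthase subunit gene, had 469.9 and 444 CPM in alveolar macrophages, against 285 and 289 in classical monocytes, 250.4 and 244 in nonclassical monocytes and 294 and 268 in cDC2. Atp5g3 was higher in each comparison (0.53 ± 0.11 against cDC2, adjusted p = 0.00011). Etfb, an electron carrier of fatty acid oxidation, had 500.1 and 483 CPM in alveolar macrophages, against 306 and 291 in classical monocytes, 194 and 189 in nonclassical monocytes and 316 and 318 in cDC2. Etfb differed by 1.35 ± 0.10 (log2) against nonclassical monocytes (adjusted p = 4.79e-14). With no filter on low counts, 9 higher and 0 lower of the list were called against nonclassical monocytes. Against classical monocytes the counts ran from 2 higher and 2 lower with doubled comparator gates to 4 higher and 8 lower with a gate of 6 UMIs, and were 4 higher and 3 lower without alveolar macrophage pool 2 and 2 higher and 6 lower without pool 1. Against cDC2 they were 3 higher and 3 lower when either alveolar macrophage pool was left out, and 4 higher and 3 lower without cDC2 pool 1. Of 16 tested glycolysis genes, 3 were called higher and 6 lower against classical monocytes, 3 higher and 6 lower against nonclassical monocytes and 3 higher and 1 lower against cDC2. The medians were -0.60, -0.30 and -0.09. In each comparison the share of glycolysis genes called higher was near that over all genes tested. Against nonclassical monocytes, 1 higher and 5 lower were called without alveolar macrophage pool 1, 1 higher and 6 lower without nonclassical monocyte pool 1 and 1 higher and 5 lower without nonclassical monocyte pool 2. Gapdh, a glycolytic enzyme gene, had 1206 and 1154 CPM in alveolar macrophages, against 906 and 833 in classical monocytes, 670.00 and 659 in nonclassical monocytes and 672 and 626 in cDC2. Gapdh differed by 0.82 ± 0.07 (log2) against nonclassical monocytes. Pkm, the pyruvate kinase gene, had 247 and 288 CPM in alveolar macrophages, against 590.5 and 521 in classical monocytes, 466 and 461 in nonclassical monocytes and 231 and 249 in cDC2. Pkm was lower than in both monocyte classes (-1.11 ± 0.11 and -0.80 ± 0.11). Slc16a3, a lactate exporter gene, had 21.98 and 33.5 CPM in alveolar macrophages, against 71.3 and 85.4 in classical monocytes, 171 and 182 in nonclassical monocytes and 24.5 and 30.3 in cDC2. Slc16a3 differed by -2.68 ± 0.23 (log2) against nonclassical monocytes.

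Some cell cycle genes were higher than in the monocytes, and the calls rested mainly on pool 2. Of 37 tested, 13 were called higher and 0 lower against classical monocytes, 30 higher and 0 lower against nonclassical monocytes and 1 higher and 5 lower against cDC2. The medians were 1.71, 3.56 and -0.21. Without alveolar macrophage pool 2 the counts were 3 higher and 0 lower, 16 higher and 0 lower and 0 higher and 19 lower against the 3 classes, and without pool 1 they were 28 higher and 0 lower, 32 higher and 0 lower and 4 higher and 3 lower. Without classical monocyte pool 1, 8 higher and 0 lower were called against classical monocytes. Mki67, a proliferation marker gene, had 46.7 and 274 CPM in alveolar macrophages, against 20.02 and 39.9 in classical monocytes, 8.42 and 6.47 in nonclassical monocytes and 207 and 154 in cDC2. Against nonclassical monocytes it gave 4.41 ± 1.02 (adjusted p = 0.0296, and adjusted p = 0.0635 with the pool as a block). Without nonclassical monocyte pool 1 the adjusted p was 0.0922, and without pool 2 0.11. Top2a, the topoisomerase gene of dividing cells, had 27.5 and 179 CPM in alveolar macrophages, against 6.25 and 30.3 in classical monocytes, 4.81 and 5.79 in nonclassical monocytes and 125 and 87.6 in cDC2. Tuba1b, a tubulin gene, had 187 and 218 CPM in alveolar macrophages, against 56.3 and 63.4 in classical monocytes, 49.3 and 48.04 in nonclassical monocytes and 212 and 179 in cDC2. Tuba1b differed by 2.04 ± 0.16 (log2) against nonclassical monocytes (adjusted p = 1.07e-13). At least 3 of 10 cycling genes were detected in 4 of 61 alveolar macrophages of pool 1 and 8 of 48 of pool 2, against 5 of 174 and 3 of 153 classical monocytes, 0 of 850 and 0 of 954 nonclassical monocytes, and 55 of 274 and 19 of 148 cDC2. At least 1 of the 10 was detected in 24.6% and 33.3% of alveolar macrophages, against 23.6% and 18.95% of classical monocytes, 6.47% and 5.97% of nonclassical monocytes and 42.7% and 31.1% of cDC2. After thinning to 1000 UMIs per cell, the shares were 8.20% and 22.9% in alveolar macrophages, 8.62% and 4.58% in classical monocytes, 2.94% and 2.41% in nonclassical monocytes and 20.8% and 18.9% in cDC2. These 10 genes were chosen after the values were seen.

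**Figure D5:**
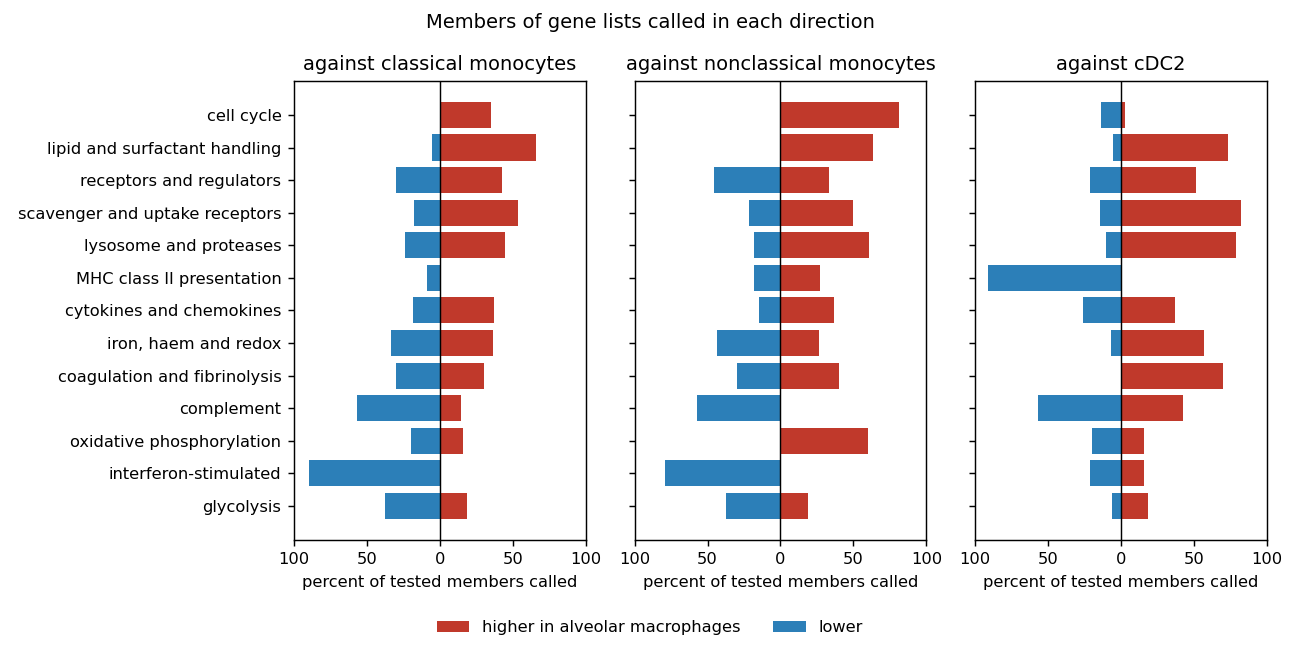
Percent of the tested members of each gene list called higher (bars to the right) or lower (bars to the left) in alveolar macrophages against each compared class (adjusted p under 0.05). Lipid and surfactant handling had 25, 24 and 28 members called higher of 38 tested. Some members of the lists were also alveolar macrophage markers, picked as such. Of all genes tested, 15.8%, 22.1% and 16.2% were called higher and 14.8%, 20.1% and 15.3% lower, in the order of the panels.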

How the data were processed

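The authors deposited raw UMI counts per gene and cell barcode in 1 matrix. Cell Ranger 6.1.2, Seurat 4.2.0 and the build mm10 are named in the submitters' processing notes, with no role given. The barcode suffix gives the pool, per the series' design text. Doublets were predicted with scanpy 1.11.5 (Scrublet) in Python 3.11.15. Counts were summed per class and pool, and 8 sums (4 classes in 2 neonatal pools) were fitted together with edgeR 4.0.16 in R 4.3.3: TMM scaling, the filterByExpr filter on low counts, the robust quasi-likelihood F test with 4 residual degrees of freedom, and Benjamini-Hochberg adjustment over all 8308 genes, with a threshold of 0.05. Every adjusted p is from that test unless another is named. Genes of any gate stayed in the library totals and out of the tests. Alternatives were a DESeq2 1.42.0 Wald test, other filters and gates, other sets of cells and each pool left out.

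Differences are on the log2 scale with their standard error, positive where alveolar macrophages were higher. Where a class had no UMI of a gene, the fold is a bound set by 3 counts over the class, and with 1 to 3 UMIs it is a ratio of summed counts with an exact counting interval. P-values measure the spread between pools of different mice, which share a droplet library. The classes of a pool come from the same animals, so a fit with the pool as a block was an alternative; deviations of same-numbered pools correlated between -0.073 and 0.053.

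The cells, gene lists and tests were chosen with earlier results of these data known. Of the genes named, 103 follow a rule (the 20 highest and 10 lowest against all 3 classes with at least 100 CPM in the higher class and no overlap between pools, the 5 most extreme per comparison and direction, and up to 4 per list by smallest p), and 35 were added after their values were seen. Of 32285 gene identifiers, 32235 matched GENCODE M21 (GRCm38). Hashtag antibody counts were used only to find mixed barcodes. Some of the named genes are not reported here.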

Additional observations from a re-analysis of the deposited data

How the results depend on the processing

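Genes called higher and lower numbered 967 to 1044 and 989 to 1099 against classical monocytes when 1 pool was left out, 1404 to 1577 and 1410 to 1586 against nonclassical monocytes, and 1016 to 1221 and 1015 to 1237 against cDC2. With 1 pool left, that pool is assumed to vary like the other classes. Under the DESeq2 Wald test, 815 genes were lower than in classical monocytes, against 1231; the cause was not tested. The other counts of genes called higher or lower stayed within 1.5 times their value over the alternatives tried. With the pool as a replicate block, the counts were 1268 higher and 1191 lower against classical monocytes, 1790 higher and 1652 lower against nonclassical monocytes and 1321 higher and 1245 lower against cDC2. Without predicted doublets, mixed hashtags and cells of 1 gate gene together, an alternative chosen after seeing the data, they were 1312 higher and 1296 lower, 1814 higher and 1722 lower and 1327 higher and 1342 lower.

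Of 414 differences of named genes, called or not, 375 had no call lost or reversed in the alternatives that tested them. A change of direction was counted only where the main or the alternative fit passed the threshold. A difference that was not called had no call to lose. The block also ended the calls of Apoe against cDC2 (adjusted p = 0.0805), Fn1 against both monocyte classes (0.0659 and 0.07), Top2a against nonclassical monocytes (0.077) and Tgm2 against cDC2 (0.0547). It changed no other call of a named gene apart from Mki67. In 2 genes a difference that had not passed the test passed it in the opposite direction. Plac8 against cDC2 was 0.59, and -0.73 with a gate of 6 or more UMIs. Tgm2 against nonclassical monocytes was 0.27, and -1.22 without alveolar macrophage pool 1, 0.94 without alveolar macrophage pool 2, -1.08 with a gate of 6 or more UMIs, -0.90 with 2 or more gate genes and -0.90 without doublets, mixed hashtags and cells of 1 gate gene; the cause was not tested. Slc39a2 was past the threshold against all 3 classes except in the DESeq2 Wald test (adjusted p = 0.262, 0.111 and 0.218).

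The gate found 64 and 49 neonatal cells with 2 or more UMIs (0 and 1 in the adult pools), 48 and 37 with 6 or more, 52 and 44 with 2 or more gate genes and 52 and 46 with a stricter cell filter. All 28 shares of cells with a UMI were lower after thinning to 1000 UMIs. With 109 cells, genes of a few UMIs are measured coarsely.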

Other observations

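Some transcripts of the alveolar macrophages came from very few cells. Ccl24, an eosinophil-attracting chemokine gene, had 296 UMIs in pool 1, all in 1 cell, and none in pool 2, so its level was 813 and 0 CPM in the 2 pools. Ccl22, a chemokine gene of mature dendritic cells, had 34 UMIs in 1 cell of pool 2 and 6 UMIs in 6 cells of pool 1. S100a9, a neutrophil and monocyte gene, had 37 of its 88 UMIs in pool 1 in 1 cell. Ly6c2 had 1 UMI in pool 1 and 21 in pool 2, of which 20 were in 1 cell.

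Fn1, the fibronectin gene, stood between the classes, with 371 and 528 CPM in alveolar macrophages, against 1559.97 and 1394 in classical monocytes, 139.9 and 138 in nonclassical monocytes and 11.4 and 47.6 in cDC2. Its log2 differences were -1.77 ± 0.36, 1.68 ± 0.40 and 4.05 ± 0.55 (adjusted p = 0.0265, 0.0313 and 0.00672). Against classical monocytes the adjusted p was 0.124 without alveolar macrophage pool 1, 0.083 without pool 2, 0.0866 without classical monocyte pool 1 and 0.0781 without classical monocyte pool 2. Against nonclassical monocytes it was 0.0855 and 0.185 without alveolar macrophage pools 1 and 2, and 0.123 and 0.129 without nonclassical monocyte pools 1 and 2.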
